A study of Mus musculus with 36 samples.

Results

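The collagen genes are the protein-coding autosomal genes of GENCODE vM21 (mouse build mm10) whose symbol has the form Col, a number, the letter a and a number. The rule finds 42 genes of the 20807 protein-coding autosomal genes. Of these, 11 encode fibrillar collagens, 6 encode basement membrane collagens (4 type IV chains and the basement membrane zone collagens Col15a1 and Col18a1) and 25 encode other collagens. Chromatin immunoprecipitation and sequencing (ChIP-Seq) was done on whole pancreas of mice 22 days after tamoxifen, and the comparison made here asks how loss of EZH2 activity in acinar cells bears on K4me3 and K27me3 (trimethylation of lysines of histone H3). Control mice (3) are labelled Wildtype, which in this study means C57BL/6 or Mist1creERT mice. EZH2ΔSET mice (3, Mist1creERT/+EZH2[delta]SET) lose the catalytic SET domain of Ezh2. All mice were 2 to 4 months old, of the C57BL/6 strain, and received tamoxifen by gavage. Cre is made from the Mist1 locus, so recombination is directed to acinar cells, while the tissue also holds duct, islet, stromal, endothelial and blood cells with unrecombined alleles.

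Collagens are extracellular matrix proteins whose chains wind into a triple helix. Fibrillar collagens assemble into the fibrils that give tissue its tensile strength, and type IV collagen forms the sheet-like network of the basement membrane on which acini and vessels rest. In the exocrine pancreas fibrillar collagen is made mainly by stellate cells and fibroblasts, and it accumulates in fibrosis and around tumors. K4me3 marks start sites in an active or permissive state, and K27me3, deposited by EZH2 within Polycomb repressive complex PRC2, marks genes that are kept silent.

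Each mouse gave 1 list of K4me3 peaks and 1 list of K27me3 peaks, called by the authors in each mouse separately. A gene was counted as marked in a mouse when at least 1 peak overlapped a window of 3 kb on either side of any of its start sites, and the length of that window covered by peaks was used as the quantitative measure. The files give no reads, so the depth behind each list is unknown. In whole tissue, fewer cells with a mark and less mark per cell cannot be told apart. The lists held 17400 to 25886 K4me3 peaks and 17638 to 25796 K27me3 peaks, and no K4me3 peak was narrower than 501 bp and no K27me3 peak narrower than 5001 bp. The tissue label was checked on markers: all 10 acinar genes tested carried K4me3 in all 6 mice. Control mouse 2 stood apart, since 22.9% of all genes carried K27me3 in it against 9.03% to 13% in the other 5 mice, 13.1% of its K27me3 peaks touched a K4me3 peak against 0.758% to 2.10%, and 5 of the 10 acinar markers carried K27me3. In the same mouse 3 of 6 leukocyte markers carried K4me3, against 0 or 1 in the others. EZH2ΔSET mouse 2 differed from the other 5 in sex-linked marks. It had K4me3 at 4 Y-linked genes, none at Xist and 17 K27me3 peaks on chromosome X, whereas the 5 others had K4me3 at Xist, none at the Y-linked genes and 3828 to 5090 such peaks.

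The sequences before the RefSeq start of 6 collagen genes are shown because they carry the contrasting states described below. Of the 42 genes, 33 have an entry in the RefSeq promoter table (build GRCm38.p6, the assembly of mm10). Each sequence is the stretch of the 250 bases before the RefSeq start that lies outside annotated exons, written 5′ to 3′ on the gene's strand, with CG dinucleotides in capitals. At 5 of the genes the stretch ends just before the GENCODE 5′ end used here. At Col1a2 the RefSeq start lies inside the GENCODE gene, and the stretch shown is 556 to 678 bp downstream of the GENCODE 5′ end. K27me3 peaks overlapped the stretch shown in 5 mice at Col1a2, 3 at Col13a1 and 1 each at Col3a1, Col11a1 and Col9a2. K4me3 peaks overlapped it in all 6 mice at Col7a1 and in 5 at Col11a1, and in none at the 4 others. The K4me3 peaks of Col3a1 and Col9a2, like part of the K27me3 peaks of Col3a1 and Col13a1, lay downstream of the stretch.
Col1a2 (chr6:4505370-4505492, + strand): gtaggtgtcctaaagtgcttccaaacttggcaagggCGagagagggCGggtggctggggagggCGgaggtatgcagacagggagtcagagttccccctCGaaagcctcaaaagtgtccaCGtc
Col13a1 (chr10:61979109-61979358, - strand): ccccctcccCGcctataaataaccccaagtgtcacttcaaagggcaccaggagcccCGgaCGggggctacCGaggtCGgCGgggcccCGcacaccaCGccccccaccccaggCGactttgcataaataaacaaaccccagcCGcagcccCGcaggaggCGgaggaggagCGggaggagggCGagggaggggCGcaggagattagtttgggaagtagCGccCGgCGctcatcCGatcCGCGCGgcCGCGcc
Col3a1 (chr1:45311288-45311537, + strand): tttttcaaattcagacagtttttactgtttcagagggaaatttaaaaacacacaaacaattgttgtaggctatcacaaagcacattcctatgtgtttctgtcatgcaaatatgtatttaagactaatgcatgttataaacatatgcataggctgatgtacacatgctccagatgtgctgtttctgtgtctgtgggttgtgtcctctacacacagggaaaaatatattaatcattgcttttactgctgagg
Col7a1 (chr9:108953336-108953585, + strand): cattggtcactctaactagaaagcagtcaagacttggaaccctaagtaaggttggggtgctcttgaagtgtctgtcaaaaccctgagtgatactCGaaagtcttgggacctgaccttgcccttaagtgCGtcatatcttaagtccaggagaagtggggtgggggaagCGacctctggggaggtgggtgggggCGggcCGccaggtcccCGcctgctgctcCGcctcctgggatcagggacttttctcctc
Col11a1 (chr3:114030290-114030539, + strand): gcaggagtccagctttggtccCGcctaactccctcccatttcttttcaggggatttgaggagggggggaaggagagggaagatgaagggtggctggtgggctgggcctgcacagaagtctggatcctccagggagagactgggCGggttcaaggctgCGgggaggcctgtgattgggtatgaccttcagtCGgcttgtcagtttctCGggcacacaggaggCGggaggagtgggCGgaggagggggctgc
Col9a2 (chr4:121039316-121039384, + strand): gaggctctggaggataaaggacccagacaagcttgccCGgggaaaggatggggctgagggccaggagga
The 250 bases of Col3a1 hold 0 CG dinucleotides and are 35.2% G and C, those of Col7a1 and of Col11a1 hold 7 CG each, and those of Col13a1 hold 24. In the 300-base windows of the table, CCAAT on either strand was found in 12 of 36 collagen entries (33.3%) against 37.4% of all 32851 entries, TATAAA in 5 (13.9%) against 13.6%, and GGGCGG in 21 (58.3%) against 35.7%. Each motif was counted on its own, without regard to overlap with another, and a match is a description of the letters only.

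Collagen genes carried K4me3 less often than other genes and K27me3 more often in most mice. These shares count a peak at any start site. They were not adjusted for the length of the joined windows, which ran from 6001 to 40600 bp among collagen genes. In control tissue, 10 of 42 collagen genes (23.8%) had K4me3 in all 3 mice, where 59.3% of all genes did. These were Col1a1, Col27a1, Col4a1, Col4a2, Col7a1, Col12a1, Col14a1, Col16a1, Col23a1 and Col25a1. Only Col19a1 and Col8a1 had K27me3 in all 3 control mice, which is 4.76% of collagen genes against 4.36% of all genes. No collagen gene had both marks in all 3 control mice, where 0.779% of all genes did. The K27me3 count is held down by control mouse 1, in which 3 collagen genes carried K27me3, against 22 in control mouse 2 and 11 in control mouse 3.

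In EZH2ΔSET tissue, 13 collagen genes (31.0%) had K4me3 in all 3 mice, where 62.2% of all genes did. The list lacked Col4a1 and Col4a2 of the control list and held Col8a1, Col9a2, Col11a1, Col20a1 and Col26a1 besides the other 8. K27me3 was present in all 3 EZH2ΔSET mice at Col1a2, Col3a1, Col5a2, Col6a4, Col12a1 and Col13a1, which is 14.3% of collagen genes against 7.78% of all genes. Col12a1 was the only collagen gene with both marks in all 3 EZH2ΔSET mice, where 1.72% of all genes had them.

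Per mouse, K4me3 was found at 12 to 18 collagen genes (28.6% to 42.9%), while 61.8% to 64.1% of all genes carried it in the same mice. K27me3 was found at 3 to 22 collagen genes per mouse (7.14% to 52.4%), against 9.03% to 22.9% of all genes. The K4me3 share of collagen genes was below that of all genes in 6 of 6 mice, and the K27me3 share was above it in 5 of 6, with control mouse 1 as the exception. The plot of shares per mouse shows both gaps. The K27me3 shares were also split by K4me3. Among genes with K4me3 in a mouse, 5.56% to 75% of collagen genes also had K27me3, against 2.49% to 19.0% of all genes, and the collagen share was the higher in 6 of 6 mice. Among genes without K4me3, 8.33% to 50% of collagen genes had K27me3, against 20.7% to 29.4% of all genes, with the collagen share lower in control mouse 1 and higher in the other 5.

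**Figure D1:**
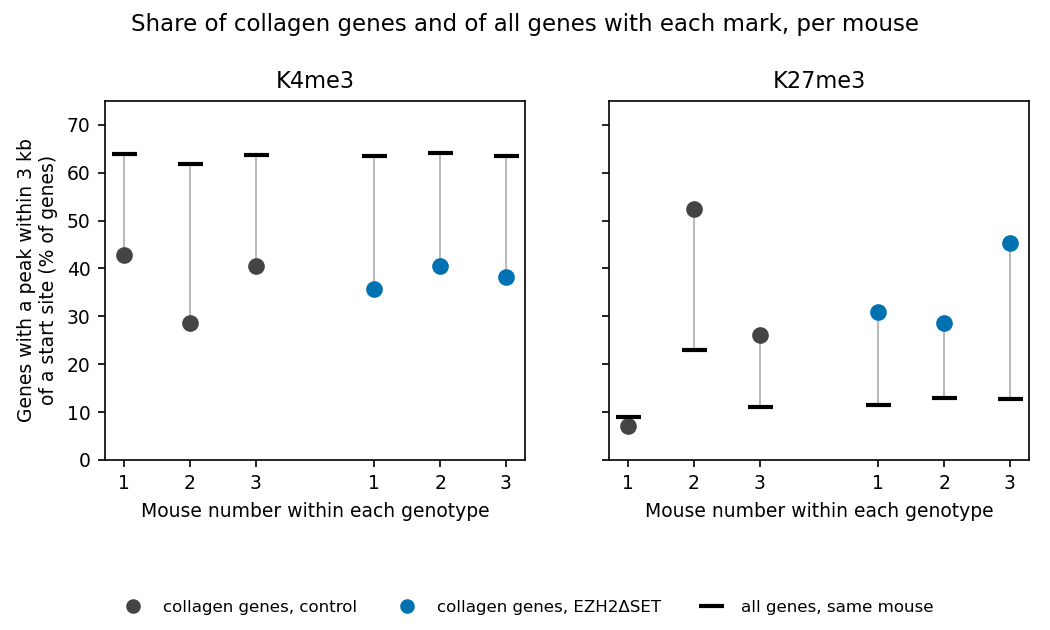
Percent of the 42 collagen genes (points, colored by genotype) and of all 20807 genes (black bars) with a K4me3 peak (left) or a K27me3 peak (right) within 3 kb of a start site, for each of the 6 mice. Every K4me3 point lies below its bar, and every K27me3 point except that of control mouse 1 (7.14% against 9.03%) lies above it.

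Over all 6 mice, the marks divided the family into several states. K4me3 was present in all 6 mice at 8 collagen genes (19.0%, against 58.8% of all genes) and in no mouse at 20 (47.6%, against 32.7%). K27me3 was present in at least 3 mice at 17 collagen genes (40.5%), compared with 12.4% of all genes, and in all 6 mice at none (3.79% of all genes). These counts take any start site. K27me3 in at least 3 mice with K4me3 in none was seen at 7 of 42 collagen genes and 1748 of 20807 genes. At the 5′ end alone, that state was seen at 5 of 42 collagen genes and 1612 of 20807 genes. At 10 collagen genes K27me3 was called in control mouse 2 and in no other mouse (23.8%, against 12.2% of all genes). K27me3 in at least 1 mouse without K4me3 in any was seen at 14 collagen genes (33.3%), against 15.6% of all genes. Each mark was called in at least 1 mouse at 17 collagen genes (40.5%), against 15.6% of all genes. Neither mark was called in any mouse at Col6a1, Col9a3, Col10a1, Col11a2, Col17a1 and Col28a1, which is 14.3% of collagen genes, against 17.1% of all genes. At the 5′ end alone, neither mark was called at 9 of 42 collagen genes and at 4156 of 20807 genes. Only Col7a1, which encodes the anchoring fibril collagen of epithelial basement membranes, had K4me3 in all 6 mice and K27me3 in none, a state held by 47.4% of all genes.

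**Figure D2:**
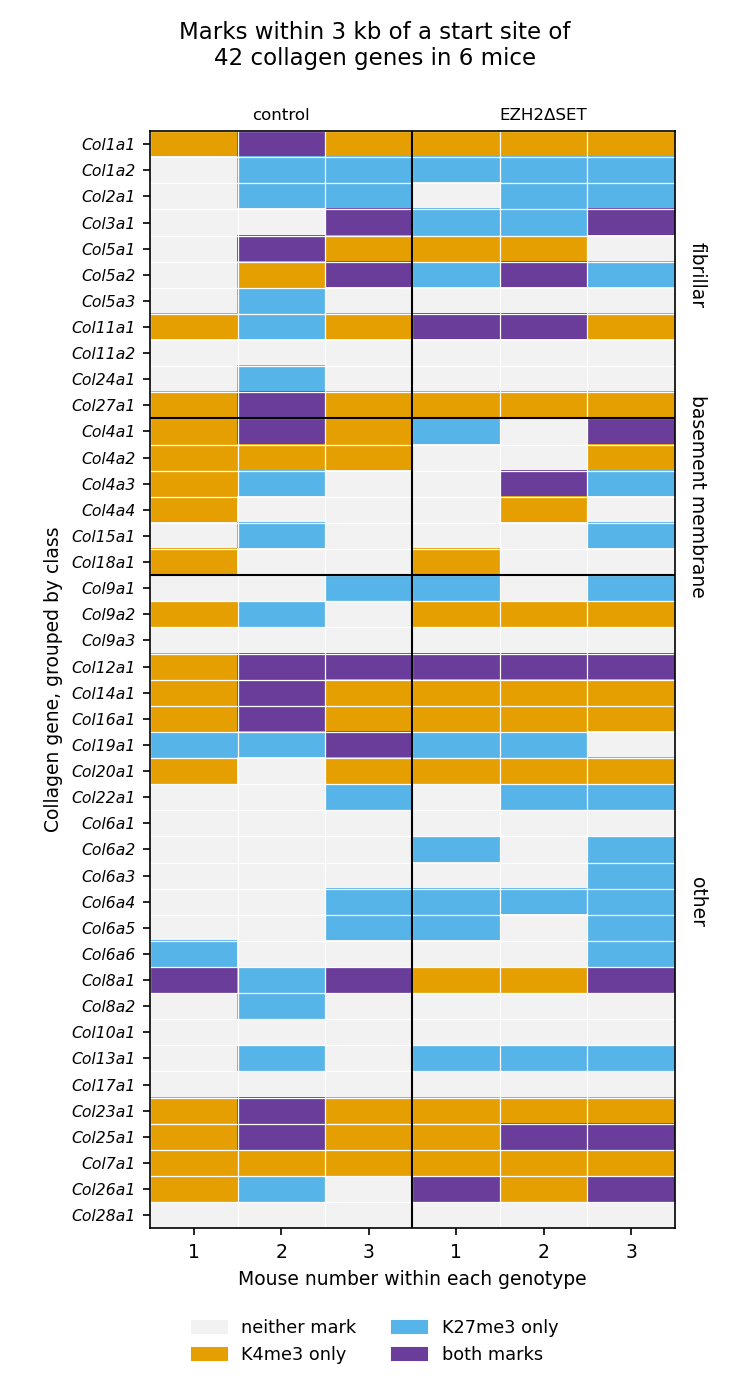
State of each of the 42 collagen genes (rows, grouped by class) in each of the 6 mice (columns, 3 per genotype): neither mark, K4me3 only, K27me3 only or both marks within 3 kb of a start site. Rows of 1 color across the 6 columns, such as Col7a1 in K4me3, stand beside rows such as Col1a2, with K27me3 in every mouse except control mouse 1, and the second column (control mouse 2) holds both marks at 9 genes.

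The fibrillar genes held contrasting states. Type I collagen, the main fibril of connective tissue, is a trimer of the Col1a1 and Col1a2 chains, and the start sites of these genes were marked differently. Col1a1 (chr11:94936224-94953042, + strand) had a K4me3 peak in all 6 mice. The peak covered 1011, 645 and 1240 bp in control mice 1, 2 and 3 and 838, 501 and 881 bp in EZH2ΔSET mice, so the groups overlapped, and it began 0.54 to 1.08 kb downstream of the annotated 5′ end. K27me3 reached the Col1a1 window in control mouse 2 and in no other mouse. Col1a2 (chr6:4504814-4541544, + strand) had no K4me3 peak in any mouse. K27me3 covered 0, 6889 and 6889 bp of its windows in control mice and 14275, 9192 and 6889 bp in EZH2ΔSET mice. Control mouse 1 alone lacked it, and controls 2 and 3 had the same length as the lowest EZH2ΔSET mouse. In each of these 5 mice a peak lay across the 5′ end, which it covered over 79.8% of the 3 kb window in EZH2ΔSET mouse 2 and over all of it in the other 4.

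**Figure D3:**
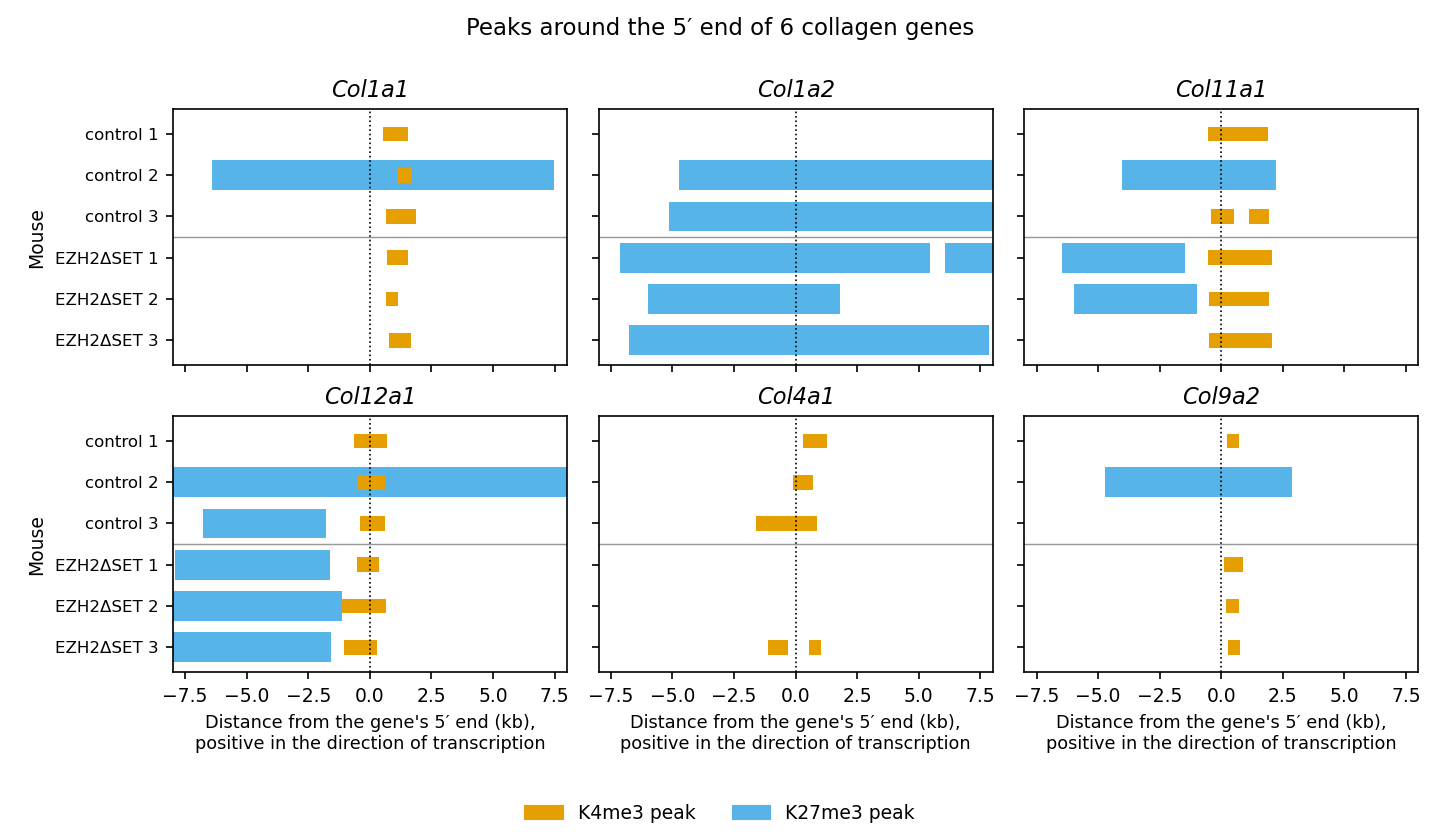
Positions of K4me3 peaks (orange) and K27me3 peaks (blue) within 8 kb of the 5′ end of 6 collagen genes, with distance in kb on the horizontal axis (positive in the direction of transcription) and 1 line per mouse. Col1a1 has a K4me3 peak downstream of its 5′ end in all 6 mice and Col1a2 a broad K27me3 peak in 5. K27me3 peaks end upstream of the K4me3 peak at Col11a1 in EZH2ΔSET mice 1 and 2. They do so at Col12a1 in control mouse 3 and all EZH2ΔSET mice.

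Among the other fibrillar genes, Col2a1, the main collagen of cartilage, resembled Col1a2 in having K27me3 in 4 mice and K4me3 in none. Its K27me3 covered 0, 11231 and 3849 bp in control mice and 0, 6906 and 11231 bp in EZH2ΔSET mice, with 1 mouse of each genotype at 0. Col5a2, whose chain is part of the type V collagen that nucleates type I fibrils, had K27me3 in 4 mice and K4me3 in 3. Its neighbor Col3a1, encoding the type III collagen of distensible tissues, lies 24.6 kb away in the opposite orientation. K27me3 at Col3a1 covered 0, 0 and 4188 bp in control mice and 2445, 6778 and 1550 bp in EZH2ΔSET mice. In control mouse 3 the peak lay at the 5′ end, while in EZH2ΔSET mice 1, 2 and 3 the first peak began 7.94, 5.22 and 9.6 kb inside the gene, so K27me3 was counted there through internal start sites. A further peak in EZH2ΔSET mouse 2 began 18.03 kb inside it. K4me3 was called at Col3a1 in mouse 3 of each genotype, over 1035 bp in control and 501 bp in EZH2ΔSET tissue.

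Col5a1, the partner chain of Col5a2, had K4me3 in 4 mice, 2 of each genotype, and K27me3 only in control mouse 2. Col27a1 had K4me3 in all 6 mice and K27me3 only in control mouse 2. Col24a1 and Col5a3 had K27me3 in control mouse 2 alone and no K4me3, and Col11a2 had neither mark. Without control mouse 2, K27me3 was thus seen at 5 of the 11 fibrillar genes, Col1a2, Col2a1, Col3a1, Col5a2 and Col11a1 (45.5% in at least 1 of the 5 remaining mice, against 50% of the 42 collagen genes and 18.9% of all genes).

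Col11a1, a minor fibril chain known from cartilage and from tumor stroma, had K4me3 in 5 mice. The covered length was 2436, 0 and 1774 bp in control mice 1, 2 and 3 and 2602, 2434 and 2570 bp in EZH2ΔSET mice. The EZH2ΔSET mice lay within a narrow range that control mouse 1 shared, and control mouse 2 alone lacked the peak and had K27me3 across the 5′ end. In EZH2ΔSET mice 1 and 2, K27me3 peaks ended -1.47 and -0.974 kb from the 5′ end (negative values lie upstream), next to the K4me3 peak.

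The same arrangement was seen at Col12a1, a fibril-associated collagen, where K4me3 was present in all 6 mice and K27me3 in 5. K27me3 covered 0, 6338 and 1228 bp of its windows in control mice and 1371, 1867 and 1422 bp in EZH2ΔSET mice. In control mouse 2 the K27me3 peak crossed the 5′ end, and in the other 4 it ended between -1.77 and -1.13 kb from it. Over the whole family, both marks were called at the same gene in the same mouse 29 times, at 16 genes (38.1%, where 13.9% of all genes had both in at least 1 mouse). The peaks overlapped in 14 of these cases, and in 13 of them the K4me3 peak lay wholly inside the K27me3 peak. In the other 15 the peaks lay apart, with a median gap of 1.39 kb, and in 4 of these (Col4a1 in control mouse 2 and EZH2ΔSET mouse 3, Col4a3 in EZH2ΔSET mouse 2 and Col16a1 in control mouse 2) they lay 33.3 to 123.3 kb apart, at different start sites. Without control mouse 2, 7 of 20 cases overlapped and 13 did not. A count of genes with both marks within 3 kb of a start site thus joins nested peaks, neighboring peaks and peaks at distant start sites.

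None of the 6 basement membrane genes had either mark in all 6 mice, where 58.8% of all genes had K4me3 and 3.79% had K27me3 throughout. Col4a1 and Col4a2 encode the chains of the common type IV collagen and lie head to head on chromosome 8, with 5′ ends 21 bp apart, so both are marked by the same K4me3 peaks. The peaks covered 987, 819 and 2461 bp in control mice 1, 2 and 3 and 0, 0 and 1334 bp in EZH2ΔSET mice. EZH2ΔSET mice 1 and 2 lay below all control mice and EZH2ΔSET mouse 3 within the control range, and the difference was within what reassigning the mice gives (p = 0.3, exact two-sided permutation test of 3 mice against 3). K27me3 was called at Col4a1 in control mouse 2 and EZH2ΔSET mice 1 and 3, at internal start sites, and at Col4a2 in none.

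Col4a3 and Col4a4, the chains of specialized filtration barriers, also form a head-to-head pair, with 5′ ends 72 bp apart. They shared a K4me3 peak in control mouse 1 (626 bp) and EZH2ΔSET mouse 2 (501 bp). K27me3 was called at Col4a3 in 3 mice, only at an internal start site far downstream, and at Col4a4 in none. Col15a1, a collagen of the basement membrane zone, had K27me3 in control mouse 2 and EZH2ΔSET mouse 3 and K4me3 in none. Col18a1, the precursor of endostatin, had K4me3 in mouse 1 of each genotype and K27me3 in none. The peak lay 0.093 kb downstream of the 5′ end in the control mouse and at an internal start site, 76.7 kb downstream, in the EZH2ΔSET mouse.

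The other 25 genes are given by class, and differences between these small classes were not tested. Of 9 fibril-associated collagen genes (FACIT), Col12a1, Col14a1 and Col16a1 had K4me3 in all 6 mice (33.3%, against 58.8% of all genes). Col20a1 had K4me3 in 5 mice, each time at an internal start site 23.4 to 23.7 kb downstream of the 5′ end, and no K27me3. Col9a2, best known from cartilage, had a K4me3 peak that covered 501, 0 and 0 bp in control mice and 793, 501 and 501 bp in EZH2ΔSET mice. It was present in all 3 EZH2ΔSET mice and 1 control mouse, in 3 of these 4 at the 501 bp that is the narrowest peak called, and K27me3 lay across the 5′ end in control mouse 2 instead. The groups shared the value 501 and did not separate (p = 0.3, exact two-sided permutation test of 3 mice against 3). Col19a1, Col9a1 and Col22a1 had K27me3 in 5, 3 and 3 mice (only inside the gene in EZH2ΔSET mouse 1 for Col9a1 and in EZH2ΔSET mice 2 and 3 for Col22a1), and K4me3 was called at Col19a1 in 1 control mouse only.

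None of the 6 genes of beaded filament collagen VI, which links cells to the surrounding matrix, had K4me3 in any mouse, a state held by 32.7% of all genes. K27me3 was called at 1, 0 and 2 of them in control mice and at 3, 1 and 5 in EZH2ΔSET mice, so that the ranges overlapped. All genes carried it at 9.03%, 22.9% and 11% in the same control mice and at 11.6%, 13% and 12.7% in the EZH2ΔSET mice. Col6a4, Col6a5 and Col6a6, neighbors on chromosome 9, had K27me3 in 4, 3 and 2 mice. At Col6a4 it covered 0, 0 and 5346 bp in control mice and 4289, 9379 and 6536 bp in EZH2ΔSET mice, with control mouse 3 inside the range of the EZH2ΔSET mice, and in EZH2ΔSET mouse 1 the peak lay 18.5 kb inside the gene. Col6a2 had K27me3 in EZH2ΔSET mice 1 and 3 and Col6a3 in EZH2ΔSET mouse 3.

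Col8a1, a short chain collagen of vessel walls, had K27me3 in all 3 control mice and in 1 EZH2ΔSET mouse. K27me3 covered 2454, 6023 and 4950 bp of its window in control mice and 0, 0 and 5249 bp in EZH2ΔSET mice. K4me3 covered 1202, 0 and 1240 bp in control mice and 1144, 732 and 1041 bp in EZH2ΔSET mice. K4me3 was thus missing only from control mouse 2, and both marks were present in control mice 1 and 3 and in EZH2ΔSET mouse 3. Col26a1 had K4me3 in 4 mice and K27me3 in 3, with both in EZH2ΔSET mice 1 and 3, and Col8a2 had K27me3 in control mouse 2 alone.

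Of the transmembrane collagens, Col23a1 and Col25a1 had K4me3 in all 6 mice, in Col25a1 at an internal start site 48.8 to 50.3 kb downstream of the 5′ end. Col13a1 had no K4me3. Its K27me3 covered 0, 6988 and 0 bp in control mice and 4620, 3635 and 6337 bp in EZH2ΔSET mice. All 3 EZH2ΔSET mice were above controls 1 and 3 and below control mouse 2.

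CpG content, which the rule did not use, was set beside these states. The ratio of observed to expected CpG within 500 bp of the 5′ end had a median of 0.435 over the 42 collagen genes and 0.569 over all genes. It was 0.532 at the 7 collagen genes with K4me3 at the 5′ end in all 6 mice and 0.317 at the 22 with K4me3 in none, compared with 0.738 and 0.182 for all genes in these states. Of the genes without K4me3 at the 5′ end, Col1a2 (0.211) was under K27me3 in 5 mice. Col13a1 (0.747) and Col2a1 (0.602), which were CpG-rich, were under it in 4. The value of Col1a2 depends on the start site used, since its RefSeq start lies outside the window of 500 bp. In the 250 bases before the RefSeq start the ratio was 0.466 at Col1a2 and 0.812 at Col13a1. Col1a1 had K4me3 in all 6 mice at a ratio of 0.300. These are descriptions across genes, which are not independent replicates.

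**Figure D4:**
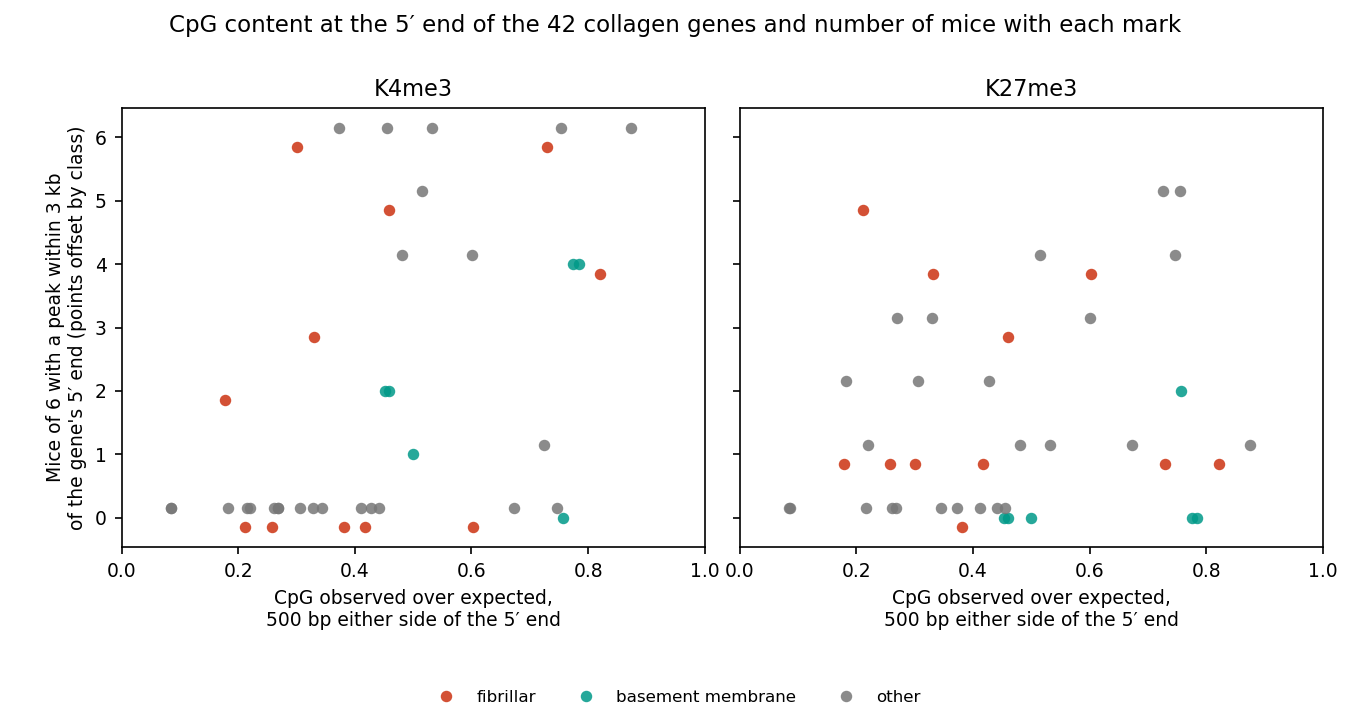
Ratio of observed to expected CpG within 500 bp of the 5′ end (horizontal axis) against the number of mice of 6 with K4me3 (left) or K27me3 (right) within 3 kb of the 5′ end, for the 42 collagen genes colored by class. Genes with K4me3 in 6 mice range from 0.300 to 0.874, and genes under K27me3 in 3 or more mice include both low and high ratios.

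EZH2ΔSET and control mice were then compared gene by gene in the covered percent of the window. For K4me3, 1 of the 22 collagen genes with any covered length was without overlap between the genotypes. Col27a1, a fibrillar collagen, was lower in EZH2ΔSET mice, with 5.44% ± 1.05 of the window covered against 7.81% ± 1.26 in controls (SD, n = 3 each), where 2.15% of all genes were lower and 9.19% higher without overlap. Its K4me3 covered 2287, 2195 and 1673 bp in control mice and 1522, 1121 and 1647 bp in EZH2ΔSET mice, so the lowest control and the highest EZH2ΔSET mouse lay close together, and with a window of 1 kb the genotypes overlapped. Of the 22 genes 10 had a higher and 12 a lower mean in EZH2ΔSET mice. The median difference was -0.40 percentage points, and it was 0.67 over all 14008 genes with coverage. Without control mouse 2, 6 genes had a higher and 16 a lower mean, beside 54.1% and 45.6% of all genes with coverage in these mice. The median difference was then -1.20, against 0.14 over all genes. Without overlap, 0 of the 22 were higher and 6 lower, beside 12.7% and 10.2% of all genes. Groups separate more readily with a mouse left out.

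For K27me3, 1 of 31 collagen genes was without overlap. Col5a2 was higher in EZH2ΔSET mice, with 55.7% ± 5.74 against 15.4% ± 26.7 of the window covered (SD, n = 3 each), where 2.5% of all genes were higher and 0.324% lower. The Col5a2 windows were covered over 0, 0 and 8323 bp in control mice and over 9187, 11182 and 9722 bp in EZH2ΔSET mice. Control mouse 3 lay just below the lowest EZH2ΔSET mouse, and the other controls had no peak. At the 5′ end alone the window was fully covered in control mouse 3 and in all EZH2ΔSET mice, so the genotypes then overlapped. Of the 31 genes 15 had a higher and 16 a lower mean in EZH2ΔSET mice. The median difference was -0.65 percentage points, and it was -4.64 over all 6479 genes with coverage. Of the 16 with a lower mean, 10 had K27me3 in control mouse 2 alone. Without that mouse, 19 of 21 collagen genes had a higher and 2 a lower mean, beside 69.1% and 29.1% of all genes with coverage in these mice, and the median difference was 7.61 percentage points against 6.50 over all genes. Without overlap, 3 of the 21 were then higher and 0 lower, beside 11.7% and 3.27% of all genes.

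Both differences without overlap, at Col27a1 and Col5a2, reached the smallest p that 3 mice against 3 allow (0.1, exact two-sided permutation test), which cannot pass 0.05. No effect of genotype on a single collagen gene was therefore shown. No collagen gene went from 0 of 3 to 3 of 3 mice or back, for K4me3 (0.107% and 0.0571% of all genes) or for K27me3 (0.648% and 0.0154%).

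**Figure D5:**
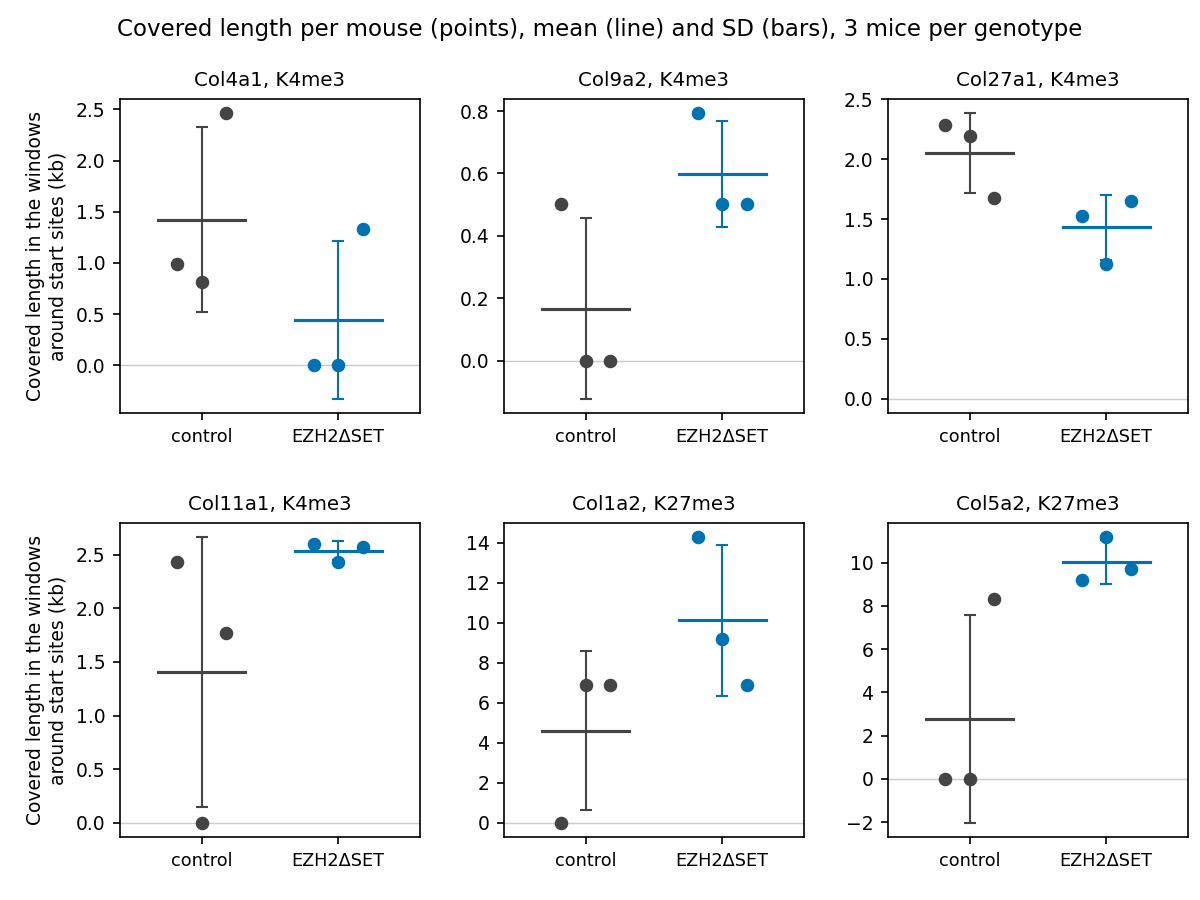
Length of the windows around start sites covered by peaks, in kb, for 6 pairs of collagen gene and mark (Col4a2 has the same lengths as Col4a1), with points for mice, lines for means and bars for SD of 3 mice. The genotypes do not overlap at Col27a1 (lower in EZH2ΔSET) and Col5a2 (higher), and at the 4 others at least 1 mouse falls within or at the edge of the range of the other genotype.

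The number of marked collagen genes per mouse did not separate the genotypes. K4me3 was found at 18, 12 and 17 collagen genes in control mice (15.7 ± 3.21, SD, n = 3) and at 15, 17 and 16 in EZH2ΔSET mice (16 ± 1.00). K27me3 was found at 3, 22 and 11 genes in control mice (12 ± 9.54) and at 13, 12 and 19 in EZH2ΔSET mice (14.7 ± 3.79). The control range enclosed all EZH2ΔSET values of both marks. The K27me3 mean was 2.67 genes higher in EZH2ΔSET than in control mice, 7.67 higher without control mouse 2 and 1.83 lower without control mouse 1 (-1.83), so its direction rests on 1 control mouse. Over all genes the K27me3 shares in the same mice were 9.03%, 22.9% and 11% in control and 11.6%, 13% and 12.7% in EZH2ΔSET mice, with control mouse 1 lowest and control mouse 2 highest there too, and K4me3 shares were 61.8% to 64.1%.

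By class, fibrillar genes with K27me3 numbered 0, 8 and 4 in control mice and 4, 5 and 4 in EZH2ΔSET mice. As shares of the 11 genes these are 0%, 72.7% and 36.4% in control mice and 36.4%, 45.5% and 36.4% in EZH2ΔSET mice, beside 9.03% to 22.9% of all genes. Basement membrane genes with K4me3 numbered 5, 2 and 2 of 6 in control mice and 1, 2 and 2 in EZH2ΔSET mice (83.3% in control mouse 1 and 16.7% or 33.3% in the others, beside 61.8% to 64.1% of all genes). Markers of other cells were looked at beside these counts. Of 9 fibroblast and stellate cell markers, K4me3 was found at 4 in each control mouse and at 2, 2 and 4 in EZH2ΔSET mice. Pdgfra and Vim carried it in all 6 mice, and Lum, Des and Fap in none. Of 5 endothelial markers K4me3 was found at 1, 2 and 2 in control mice and at 2, 2 and 1 in EZH2ΔSET mice. None was at Cdh5 or Tie1. The 4 mice with K4me3 at Col4a1 (3 control mice and EZH2ΔSET mouse 3) each had 4 fibroblast markers with K4me3, and the other 2 mice had 2. Beside Pdgfra and Vim these were Pdgfrb and Dcn in control mice 1 and 3 and EZH2ΔSET mouse 3, but Acta2 and Thy1 in control mouse 2, which lacked the former pair. The endothelial counts did not follow the split of the mice by K4me3 at Col4a1. The part of these markers in the Col4a1 values was not tested.

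The genes that make and process collagen were set beside all genes. Of 31 genes of collagen synthesis and processing, 21 (67.7%) had K4me3 in all 6 mice, against 58.8% of all genes, and 5 (16.1%) had it in none, against 32.7%. No K27me3 in any mouse was seen at 21 (67.7%), against 68.9% of all genes. Most genes for prolyl and lysyl hydroxylation (among them P4ha1, P4ha2, P4hb, Plod1, Plod2, Plod3), the collagen chaperone gene Serpinh1 and the propeptidase gene Bmp1 were among those with K4me3 throughout. The prolyl hydroxylase gene P4ha3 had K4me3 in no mouse and K27me3 in control mouse 2. K4me3 was also in none at Adamts14, Loxl1, Loxl2 and the crosslinking enzyme gene Lox, and Lox alone of the list had K27me3 in all 6 mice. Of 7 collagen receptor genes, Itga1, Itga2, Itgb1 and Ddr1 had K4me3 in all 6 mice (57.1%), and Itga10, Itga11 and Ddr2 in none. Between EZH2ΔSET and control mice, 1 of the 31 synthesis genes (3.23%, where 9.19% of all genes were) was higher in K4me3 without overlap (Ppib, a prolyl isomerase gene, with 62.5% to 69.98% of the window covered in control and 70.03% to 73.2% in EZH2ΔSET mice), and no other gene of either list was without overlap for either mark.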

How the data were processed

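Chromatin from pancreas was immunoprecipitated for K4me3 or K27me3 in 3 control and 3 EZH2ΔSET mice, and the other samples of the study are not analysed here. The authors used Bowtie2 for alignment (build mm10) and HOMER for peaks, called per mouse against input (versions not given in the sources used here). The deposited BED files hold positions and a score that is 1 in every peak, so neither reads nor heights were available and depth is unknown. No interval for counting error can therefore be given. Peaks were intersected with windows of 3 kb on either side of every GENCODE vM21 start site with numpy 2.4.6 and pandas 2.3.3 in Python 3.11.15. Covered percent of the joined windows was compared between genotypes by an exact two-sided permutation test of 3 mice against 3, which cannot give a p below 0.1. The script, which used scipy 1.17.1 and matplotlib 3.10.9 besides, was tested on simulated data. The samples are labelled biological replicates. The collagen genes and lists were chosen with earlier results of these data known. Every fibrillar and basement membrane gene was named, and of the others those with a mark in 3 of 3 mice of 1 genotype and 0 of 3 of the other, with a mark in all 6 mice or with the lowest p. Other genes were named after their values were seen. Alternatives were other windows, overlaps, start sites, peak numbers and presence rules, medians and leaving out each mouse. Those for the number of genes without overlap, the replicate block among them, and the counts of means without control mouse 2 were chosen after seeing the data.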

Additional observations from a re-analysis of the deposited data

How the results depend on the processing

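Depth is unknown, a peak edge depends on the caller, and the narrowest peaks (501 bp for K4me3, 5001 bp for K27me3) set the smallest covered length. With another rule, 15 of 43 counts and differences changed direction or moved by more than 1.5 times or 1 SD, and the cause was not tested. K4me3 in EZH2ΔSET minus control mice, 0.333 genes per mouse, was -0.333 at the 5′ end only, -0.333 with an overlap of 500 bp, -4.33 with only the widest peaks (the same number in each mouse) and -1 for medians. K27me3 in EZH2ΔSET minus control mice, 2.67, was -0.667 at the 5′ end only, 0.667 with a window of 1 kb, 1 with the widest peaks and 1.67 with 5 kb (the last 3 within 1 SD). The control count for K27me3, 2, was 1 with the widest peaks, 5 with 2 of 3 mice and 14 with 100 kb upstream, and that for both marks, 0, was 2 with 2 of 3 mice and 2 with 100 kb. The number of genes without overlap was 0 with 1 kb and 4 with the widest peaks for K4me3, and 0 at the 5′ end only for K27me3 (1 in each case otherwise). Shares of all genes without overlap under these rules are not given, so the counts cannot be set against all genes.

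Leaving out 1 mouse at a time gave 10 to 13 genes with K4me3, 2 to 5 with K27me3 and 0 to 1 with both marks in control mice. It gave 1 to 6 genes (K4me3) and 1 to 3 (K27me3) without overlap between the genotypes. With a mouse left out, the groups separate more readily at any gene. Leaving out control mouse 2 gave 6 genes for K4me3, all lower, and 3 for K27me3, all higher. Over all genes with coverage, 12.7% were then higher and 10.2% lower for K4me3, and 11.7% and 3.27% for K27me3. Shares over all genes are not given for the other mice left out. The difference ran from -1.5 to 1.5 for K4me3 and from -1.83 to 7.67 for K27me3. It was lowest for K4me3 without control mouse 2 and highest without control mouse 1, the reverse of K27me3. Correlations of deviations between mice of the same replicate number (1, 2 and 3) were 0.21, 0.25 and 0.07 for K4me3. They were 0.04, -0.16 and -0.06 for K27me3. The limit set for pairing, 0.1, was thus passed by replicates 1 and 2 for K4me3 and by none for K27me3. With the replicate block, under which no p can fall below 0.25 in an exact permutation test, 6 genes (K4me3) and 2 genes (K27me3) had the same direction in all 3 pairs, which is 27.3% and 6.45% of the collagen genes with coverage, against 25.8% and 5.31% of all genes with coverage.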

Other observations

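The X-linked type IV collagen genes Col4a5 and Col4a6, which share a start region and lie outside the autosomal set, had K4me3 in all 6 mice. K27me3 was called at both in the 5 mice with K4me3 at Xist and not in EZH2ΔSET mouse 2, which had K4me3 at the Y-linked genes. In the 5 mice it covered 56.9% to 100% of the Col4a6 windows and 3.12% to 100% of the Col4a5 windows.

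When the K27me3 window was widened to 100 kb upstream of each start site, 16, 37 and 22 of the 42 collagen genes were counted in control mice, and 28, 25 and 31 in EZH2ΔSET mice. These are 38.1%, 88.1% and 52.4% in control and 66.7%, 59.5% and 73.8% in EZH2ΔSET mice, against 25.7%, 53.7% and 30.1% and against 31.5%, 34.3% and 33.5% of all genes with the same window. Control mouse 1 stayed the lowest and control mouse 2 the highest of the 6.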
